A study of Mus musculus with 46 samples.

Results

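Ribosome footprints of Ctu1 iKO and control cells were compared under torin 1, and all genes listed in the count tables for torin 1 were taken as members. The comparison holds 12 of the 46 libraries of the series, 6 of each genotype, and 9913 genes with a unique symbol out of 9936 entries. The cells, EPP2, come from a pancreatic tumour of the mouse and were used as a clone grown from a single cell that carries Cas9 under a doxycycline-inducible promoter. Ctu1 iKO cells carried a pair of guide RNAs against Ctu1 and received doxycycline at 300 ng/ml for 4 days, so that they are an edited pool and not a knockout clone. Controls in the study carried guides to non-coding regions or received no doxycycline, and the sources used here do not say which was sequenced. Both genotypes received 300 nM torin 1 for 2 h before lysis, and further libraries of both genotypes received DMSO for 2 h. The question was which mRNAs lose or gain ribosomes with loss of Ctu1 once mTOR is inhibited. The study's methods name fewer independent cultures for ribosome profiling than there are replicate numbers, whereas elsewhere it counts every replicate as an independent experiment. As this could not be settled, all p-values measure the spread between these libraries, part of which may be technical.

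Ctu1 and its partner Ctu2 form the enzyme that replaces an oxygen by sulfur on the wobble uridine (U34) of the tRNAs that read the lysine codon AAA, the glutamate codon GAA and the glutamine codon CAA. These codons are written together as VAA, and the Elongator complex acts on the same uridine before Ctu1 and Ctu2. The kinase mTOR in its complex mTORC1 drives translation, above all of mRNAs that begin with a terminal oligopyrimidine (TOP) stretch, which encode the ribosomal proteins and most elongation factors. Torin 1 blocks the active site of mTOR and thereby slows the translation of TOP mRNAs. In ribosome profiling, the stretches of mRNA that ribosomes shield from nuclease are sequenced, and their number per gene gives the share of all ribosomes on that mRNA. A change that affected all mRNAs alike would therefore not be seen in these values.

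The guides against Ctu1 are printed because they define the knockout. Each line gives the guide 5′ to 3′ in lower case and the bases that follow it in the genome, the protospacer-adjacent motif (PAM), in capitals. All 4 sites were found in GRCm38 within a coding exon of Ctu1 (chr7:43672016-43678298, plus strand), and which pair the sequenced cells carried was not stated in the sources used here.
First guide of the first pair, chr7:43675332-43675349, minus strand: gcacgtgtgccagcactgTGG
Second guide of the first pair, chr7:43675475-43675492, minus strand: gtaggccacgatggtgagCGG
First guide of the second pair, chr7:43675314-43675332, minus strand: gtggagtccttgccaccagAGG
Second guide of the second pair, chr7:43675484-43675503, plus strand: gtggcctacgaagatctcttCGG
Footprints of Ctu1 itself were not analysed here under torin 1, because the gene is not among those of the torin 1 tables used. With DMSO they were at 1.60 to 3.63 counts per 1000000 (CPM, median 2.54) in control and at 1.30 to 2.25 CPM (median 1.70) in Ctu1 iKO libraries. The log2 change was -0.54 ± 0.29 (edgeR adjusted p = 0.353) and the ranges overlapped, so that footprints of the target did not separate the genotypes. Counts this low could not test the editing, which the study checked by PCR of the Ctu1 locus in Ctu1 iKO cells.

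Footprint totals over the genes used ranged from 10122712 to 34612538 counts in control and from 4585297 to 18808238 in Ctu1 iKO libraries, with the lower total in the Ctu1 iKO library in 6 of 6 same-numbered pairs. Ctu1 iKO replicate 1 was the shallowest, and its median correlation with the other libraries of its group was r = 0.914, against 0.954 to 0.976 for the other 11 libraries. No entry of the tables stayed below 100 footprint counts throughout, and genes covered more thinly than that were not tested. The cells were checked against marker genes. Of 17 epithelial markers 5 were listed (Krt8, Krt18, Krt19, Sox9 and Ocln), and Epcam and Cdh1, which define epithelia, were not among them. Of 20 mesenchymal markers 17 were listed, with summed levels of 6562 to 8805 CPM in control and 6222 to 15390 CPM in Ctu1 iKO libraries. Of 14 immune markers 1 was listed (Cd14), of 10 endothelial markers 1 (Flt1) and of 16 acinar or endocrine markers 0.

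In Ctu1 iKO cells under torin 1, most cytosolic ribosomal protein genes and most of the other TOP mRNAs had lower footprints, whereas the genes with higher footprints included 10 of 30 ATF4 targets and 8 of 48 autophagy and lysosome genes. With edgeR's quasi-likelihood test and Benjamini-Hochberg adjustment over all 9913 genes, 479 genes (4.83%) passed an adjusted p of 0.05. Of these, 221 (2.23%) were higher and 258 (2.6%) lower in Ctu1 iKO cells. Among the 258 lower genes, 73 encode cytosolic ribosomal proteins, 15 are other TOP mRNAs and 18 are pseudogenes or gene models named by number, whereas the 221 higher genes held 0, 0 and 2 of these. The rest were 152 lower and 219 higher genes. Many calls fell in none of the 32 gene lists, 132 of the 258 lower and 186 of the 221 higher genes. Same-numbered control and Ctu1 iKO libraries deviated together from their group means (r = 0.316 to 0.543), and with the replicate number as a block 1425 genes passed (14.4%), 696 higher (7.02%) and 729 lower (7.35%). Scaled by library totals alone in place of TMM factors, the split turned to 281 higher and 202 lower genes. The count fell to 316 without control replicate 3 and to 301 without control replicate 6. With replicates 1 and 2 alone, 0 genes passed in edgeR and 846 had an unadjusted p under 0.05, whereas replicates 3 to 6 alone gave 638 genes.

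Of 83 cytosolic ribosomal protein genes tested, 73 were lower and 0 were higher, where 2.6% of all genes were lower. The median log2 change was -0.71, against 0.01 over all genes tested. The log2 change lay below 0 for 82 of the 83 genes, as it did for 48.1% of all genes. The gene outside this count was Rps27l, a ribosomal protein-like gene (log2 change 0.06, adjusted p = 0.876 in edgeR), which was named after its value was seen. In 67 of the 83 genes the ranges of the genotypes did not overlap, which held for 4.31% of all genes. Both subunits held lower genes. Of 34 small-subunit genes 32 were lower, with a median of -0.73, and of 49 large-subunit genes 41 were lower, with a median of -0.69. Scaled by library totals alone, 69 of the 83 were lower, where 2.04% of all genes were, and with replicates 3 to 6 alone 74 were lower, where 3.57% of all genes were.

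Rps18 encodes a protein of the small subunit and lies at chr17:33951999-33955677 in GRCm38. Its footprints ranged from 669 to 1013 CPM (median 837) in control and from 308 to 426 CPM (median 378) in Ctu1 iKO libraries. The log2 change was -1.19 ± 0.11 (SE, n = 6 and 6; edgeR adjusted p = 3.07e-05). The ranges stood well apart, with the highest Ctu1 iKO library below the lowest control. Footprints of Rps12 (chr10:23785183-23787275) ran from 269 to 477 CPM (median 417) in control and from 134 to 203 CPM (median 172) in Ctu1 iKO cells, a log2 change of -1.22 ± 0.15. Rps2 (chr17:24720110-24721929) ran from 176 to 249 CPM (median 201) against 80.9 to 113 CPM (median 94.3), a log2 change of -1.09 ± 0.12. Rps27, Rps7 and Rps19 fell by 1.07, 0.97 and 0.96 on the log2 scale. None of these 6 small-subunit genes overlapped between genotypes.

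In the large subunit, Rpl28 had 460 to 640 CPM (median 499) in control and 216 to 293 CPM (median 251) in Ctu1 iKO cells, a log2 change of -1.05 ± 0.11. Rpl10a was one of the most abundant, with a median of 1626 CPM in control and 875 CPM in Ctu1 iKO cells (log2 change -0.91 ± 0.09). Rpl3 fell by 0.91 and Rpl17 by 0.73 on the log2 scale. Rps25, Rps3 and Rpl29 are shown because the study followed them as single proteins. Rps25 ranged from 590 to 702 CPM in control and from 385 to 458 CPM in Ctu1 iKO cells (log2 change -0.63 ± 0.08, edgeR adjusted p = 0.000273). Rps3 ranged from 750 to 884 CPM against 450 to 589 CPM (log2 change -0.66 ± 0.09, edgeR adjusted p = 0.000393). Rpl29 was the least certain of the 3, with 97.1 to 146 CPM against 40.0 to 88.8 CPM and a log2 change of -0.79 ± 0.19 (edgeR adjusted p = 0.0242). Its adjusted p rose to as much as 0.0588 when control replicate 3 or 4 or Ctu1 iKO replicate 2 or 5 was left out. All 3 were separate between genotypes.

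Other TOP mRNAs fell as well, with 15 of 19 tested genes lower (background 2.6%), 0 higher and a median log2 change of -0.62. Eef1a1, which delivers aminoacyl-tRNA to the ribosome (chr9:78478449-78481724), ranged from 5089 to 6070 CPM (median 5647) in control and from 1778 to 2151 CPM (median 1940) in Ctu1 iKO libraries. Its log2 change was -1.53 ± 0.08 (edgeR adjusted p = 7.91e-08), and the 2 ranges were far apart. Pabpc1, the cytoplasmic poly(A)-binding protein (chr15:36595661-36608973), had 88.4 to 176 CPM (median 172) in control and 47.3 to 71.8 CPM (median 58.6) in Ctu1 iKO libraries, a log2 change of -1.45 ± 0.16. Control replicate 1 held the lowest control value of Pabpc1, apart from the other 5. Eef1b2, the exchange factor that recharges Eef1a1, had medians of 875 and 430 CPM, and Eef2, the translocation factor, fell by 1.09 on the log2 scale. Npm1, a nucleolar chaperone, fell by 0.94 from a control median of 4579 CPM. Ybx1, an mRNA-binding cold-shock protein, fell by 0.68, and the initiation factor subunits Eif3f and Eif3h by 0.77 and 0.49. The 4 members without a call were Nap1l1, Eif3e, Eif4b and Vim, and Vim, the mesenchymal intermediate filament, had a log2 change of -0.35 ± 0.11 (edgeR adjusted p = 0.0812). With the replicate block 19 of 19 were lower (background 7.35%), and Vim passed in 6 of 23 alternatives (adjusted p down to 0.00523).

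**Figure D1:**
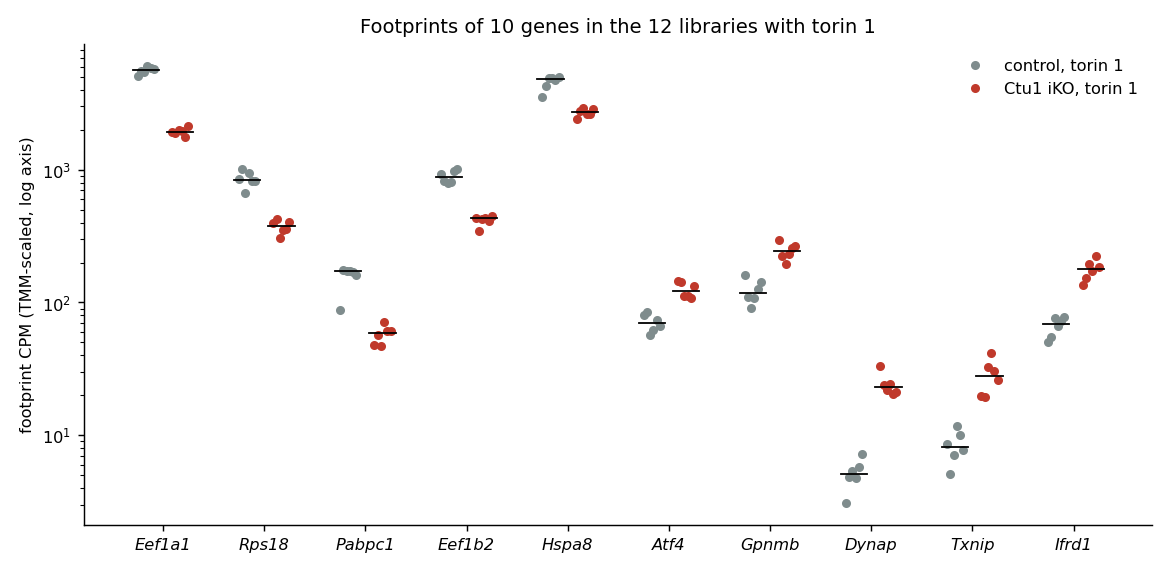
Footprint levels in CPM on a log axis for 10 named genes, 1 point for each of the 6 control (grey) and 6 Ctu1 iKO (red) libraries with torin 1 and a line at the group median. Eef1a1, Rps18, Pabpc1, Eef1b2 and Hspa8 were lower in every Ctu1 iKO library, and Atf4, Gpnmb, Dynap, Txnip and Ifrd1 higher, without overlap of the groups.

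The level of the ribosomal protein list as a whole was read in each library as the mean log2(CPM + 1) over its 83 genes. With DMSO it ranged from 9.56 to 9.84 in 6 control and from 9.53 to 9.74 in 5 Ctu1 iKO libraries, and these ranges overlapped. With torin 1 it ranged from 8.64 to 8.88 in control and from 7.91 to 8.17 in Ctu1 iKO libraries, without overlap. The control range with torin 1 thus lay below both DMSO groups, and the Ctu1 iKO range lay below that. For the 19 other TOP mRNAs the ranges were 10.15 to 10.23 and 9.88 to 10.02 with DMSO and 9.11 to 9.43 and 8.47 to 8.77 with torin 1, and none of the 4 groups overlapped. Between torin 1 libraries of the same number, the ribosomal protein level differed by -0.81 to -0.58 and that of the other TOP mRNAs by -0.77 to -0.66, each lower in Ctu1 iKO cells in 6 of 6 pairs.

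**Figure D2:**
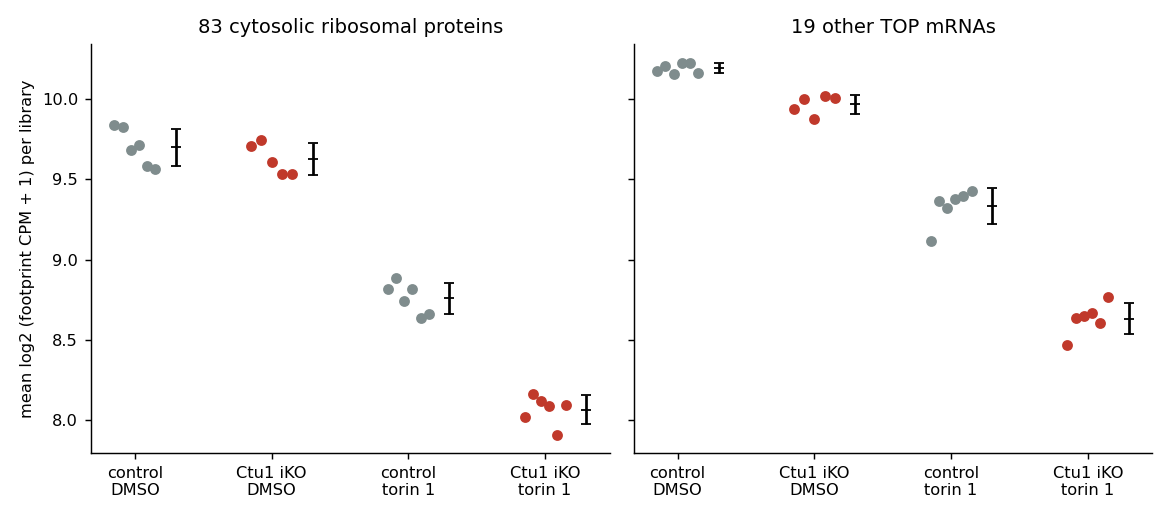
Mean log2(CPM + 1) of footprints over the 83 cytosolic ribosomal protein genes (left) and 19 other TOP mRNAs (right), 1 point per library in 4 groups, with bars for the mean and SD. With torin 1 the Ctu1 iKO libraries sit at 7.91 to 8.17 for ribosomal proteins, below the control libraries at 8.64 to 8.88, and with DMSO the 2 genotypes overlap there. For the other TOP mRNAs the genotypes do not overlap with either treatment, at 9.88 to 10.02 in Ctu1 iKO and 10.15 to 10.23 in control libraries with DMSO.

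Coding sequences show how much the lower genes differ in their demand for AAA. A coding sequence was taken for 9784 of the 9913 genes (98.7%) from GENCODE M21 in GRCm38. For 4 genes with lower footprints, picked by hand without a rule, 20 codons in frame are printed in lower case with each AAA codon in capitals. They were taken as the first window of that length with the most AAA.
Rps25, codons 1 to 20: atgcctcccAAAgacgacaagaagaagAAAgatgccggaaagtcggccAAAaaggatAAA
Eef1a1, codons 60 to 79: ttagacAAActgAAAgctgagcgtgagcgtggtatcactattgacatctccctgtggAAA
Rps2, codons 256 to 275: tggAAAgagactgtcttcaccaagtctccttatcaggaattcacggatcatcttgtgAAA
Rack1, codons 1 to 20: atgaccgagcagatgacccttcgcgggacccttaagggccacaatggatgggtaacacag
AAA made up 9 of the 125 codons of Rps25 (7.2%) and 19 of the 462 of Eef1a1 (4.11%). It made up 4 of the 293 codons of Rps2 (1.37%) and 0 of the 317 of Rack1. Footprints of Rack1, a scaffold protein of the small subunit that acts in stalled-ribosome signalling, ranged from 436 to 608 CPM (median 542) in control and from 298 to 403 CPM (median 379) in Ctu1 iKO libraries. Its log2 change was -0.56 ± 0.11 (edgeR adjusted p = 0.00715), and the ranges did not overlap.

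The median share of AAA was 2.19% over all genes, 2.84% in the lower and 2.01% in the higher genes, 3.43% in ribosomal protein genes and 3.41% in other TOP mRNAs. Ribosomal protein genes were also rich in AAG, the lysine codon that does not need the modification, with a median of 8.52% against 3.46% over all genes. Their VAA share, with a median of 6.25% against 6.1%, was close to that of all genes. Within the 83 ribosomal protein genes, the median log2 changes of the quartiles from low to high AAA were -0.71, -0.70, -0.68 and -0.74, and Spearman's rho over the 83 genes was -0.04, as a description over genes that share the same libraries. For AAG rho was 0.25 over the same 83 genes. Outside both TOP lists rho was -0.04 for AAA, -0.03 for VAA and -0.04 for AAG over 9682 genes. There, the share of lower genes was 1.34% in the fifth of genes with the least AAA and 2.37% in the fifth with the most, and that of higher genes was 2.27% and 1.39%. Binned by VAA in the same way, from the least to the most, these shares were 1.65% and 1.97% for lower and 1.96% and 0.983% for higher genes. Counts per gene do not show at which codon the ribosomes sat. The study found more ribosomes at AAA codons in Ctu1 iKO cells. From nascent proteomics it also reported that AAA content and lower synthesis of ribosomal proteins were correlated. Neither was measured here, and the rho values do not test them.

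**Figure D3:**
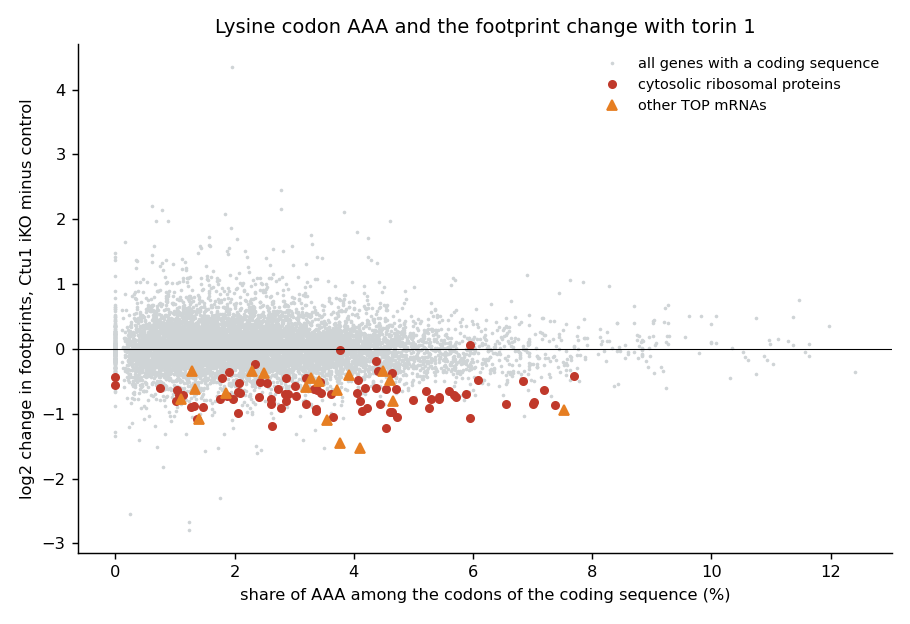
Share of AAA among the codons of each coding sequence (x axis, percent) against the log2 change in footprints, Ctu1 iKO minus control with torin 1 (y axis), for all genes with a coding sequence. Ribosomal protein genes (red), all but Rps27l, and other TOP mRNAs (orange) lie below 0 from low to high AAA, with quartile medians of -0.71, -0.70, -0.68 and -0.74 for the ribosomal proteins.

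The start of the annotated transcript was read for a TOP-like stretch, since TOP mRNAs begin with a C followed by pyrimidines. Of the lower genes, the 4 with the longest stretch of this kind are printed, apart from a chromosome that was left out. Each line gives the first 20 bases of the transcript with the run of C and T in capitals.
Rps24, chr14:24490718-24496959: CTCTTTTCCTCCTCTCCagc
Rps2, chr17:24720110-24721929: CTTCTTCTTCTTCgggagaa
Pabpc1, chr15:36595661-36608973: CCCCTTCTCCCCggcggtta
Rack1, chr11:48800360-48806434: CTTTTTCTCCacagggtcgt
A C followed by at least 4 pyrimidines stood at the annotated first base in 2.26% of all genes, 6.72% of the lower genes, 0.909% of the higher genes and 10.8% of ribosomal protein genes. Starts used in these cells were not measured, and no match says only that these letters are not at that base.

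Further lists of the translation system held fewer calls. Of 41 initiation factors 5 were lower and 0 higher (median -0.16), and all 5 were subunits of eIF3 (Eif3f, Eif3h, Eif3k, Eif3j1 and Eif3b). Without control replicate 5 the lower ones numbered 3, and with the replicate block 14 initiation factors were lower and 2 higher. Of 79 mitochondrial ribosomal protein genes 2 were lower (median -0.05), where 2.6% of all genes were lower, and 0 without control replicate 3 or 4. Of 64 nucleolar ribosome biogenesis factors 3 were lower (median -0.07), of which Npm1 is itself counted among the TOP mRNAs. The block gave 4 lower mitochondrial ribosomal protein genes and 7 lower and 2 higher nucleolar factors, where 7.35% of all genes were lower and 7.02% higher. Of 20 genes of ribosome stalling and quality control 1 was lower (Rack1). Of 23 aminoacyl-tRNA synthetases 3 were higher and 1 was lower (median 0.02), against 7 and 6 with the block. None was higher without control replicate 3 or 4 or Ctu1 iKO replicate 2, 5 or 6, and 1 without Ctu1 iKO replicate 4, and the lower call was lost without any of control replicates 2 to 6 or Ctu1 iKO replicates 2 to 5. Of 13 U34 enzymes 0 passed in either direction in edgeR or DESeq2 and 1 had an unadjusted p under 0.05, with a median log2 change of 0.08. Ctu2, the partner of Ctu1, had 40.0 to 47.2 CPM in control and 29.5 to 53.8 CPM in Ctu1 iKO cells, and its log2 change was 0.04 ± 0.14 (edgeR adjusted p = 0.924). Elp3, the catalytic subunit of Elongator, had a log2 change of 0.23 ± 0.15 and Nfs1, which supplies the sulfur, one of 0.32 ± 0.13, and neither passed.

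Chaperones, sterol synthesis and glycolysis held more lower genes than higher ones, where 2.6% of all genes were lower and 2.23% higher. Of 25 chaperone and heat shock genes 9 were lower and 0 higher (median -0.29), among them 6 subunits of the CCT/TRiC folding chamber, and 15 were lower with the replicate block. Cct2, one of these subunits, ranged from 812 to 976 CPM (median 934) in control and from 511 to 604 CPM (median 551) in Ctu1 iKO cells. Hspa8, the constitutive Hsc70, had medians of 4815 and 2703 CPM (log2 change -0.76 ± 0.10), and Hsp90ab1 had medians of 3828 and 2220 CPM (-0.72 ± 0.10). Hspd1, the mitochondrial Hsp60, fell by 0.67 on the log2 scale. None of these 4 overlapped between genotypes. Of 26 genes of cholesterol synthesis and uptake 5 were lower (median -0.35), with Fdft1, squalene synthase, at 186 to 248 CPM (median 208) in control and 106 to 153 CPM (median 122) in Ctu1 iKO cells. Of 21 glycolysis genes 5 were lower (median -0.21), with Slc16a3, the lactate exporter, falling by 0.90, Aldoa by 0.51 and Gpi1 by 0.48 on the log2 scale. Of 41 mitosis genes 3 were lower and 1 was higher (median -0.23), with Ube2c, the E2 enzyme of the anaphase-promoting complex, falling by 0.58 and the condensin subunit Ncapd2 by 0.46. With the block, where 7.35% of all genes were lower and 7.02% higher, the lower genes numbered 13 in cholesterol, 10 in glycolysis and 16 in mitosis, with 2 mitosis genes higher. The cholesterol count was 2 with library totals alone, 9 without Ctu1 iKO replicate 1 and 1 without control replicate 4 or Ctu1 iKO replicate 2, and the lower mitosis genes numbered 7 without Ctu1 iKO replicate 1 and 6 without control replicate 1. The higher mitosis gene was lost without control replicate 2, 3 or 6 or Ctu1 iKO replicate 2, 3 or 6. Without control replicate 4, 3 glycolysis genes were lower.

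Outside the lists, the largest falls among genes that averaged 100 counts or more without overlap of the groups included Khdrbs2, a KH-domain RNA-binding protein, with 8.69 to 12.8 CPM in control and 2.47 to 5.43 CPM in Ctu1 iKO cells (log2 change -1.40 ± 0.24). Its transcripts had only 0 to 4 counts in each of the 12 RNA-seq libraries with torin 1 and were left out of the transcript tests, and whether its footprints came from that mRNA was not tested. Lama5, the laminin alpha-5 chain and a member of the extracellular matrix list, had 43.5 to 81.9 CPM (median 49.9) against 14.6 to 27.6 CPM (median 21.2), a log2 change of -1.41 ± 0.21. In that list 1 of 34 genes was lower and 2 were higher (median 0.12), where 2.6% of all genes were lower and 2.23% higher. With the block 5 were lower and 8 higher (background 7.35% and 7.02%). Without Ctu1 iKO replicate 1, 4 were lower and 2 higher with a median of -0.03, and with replicates 3 to 6 alone 6 were lower and 2 higher with a median of -0.10. The higher ones, Fbln2 and Fbn1, are fibre proteins with log2 changes 1.03 ± 0.22 and 0.73 ± 0.16, and their ranges overlapped between genotypes. Rps18-ps5 and Rps18-ps6, pseudogenes that are near copies of Rps18, had log2 changes of -1.22 ± 0.11 and -1.17 ± 0.11. Reads of these copies and of Rps18 could have been split between them in counting, and whether they are independent entries was not tested.

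**Figure D4:**
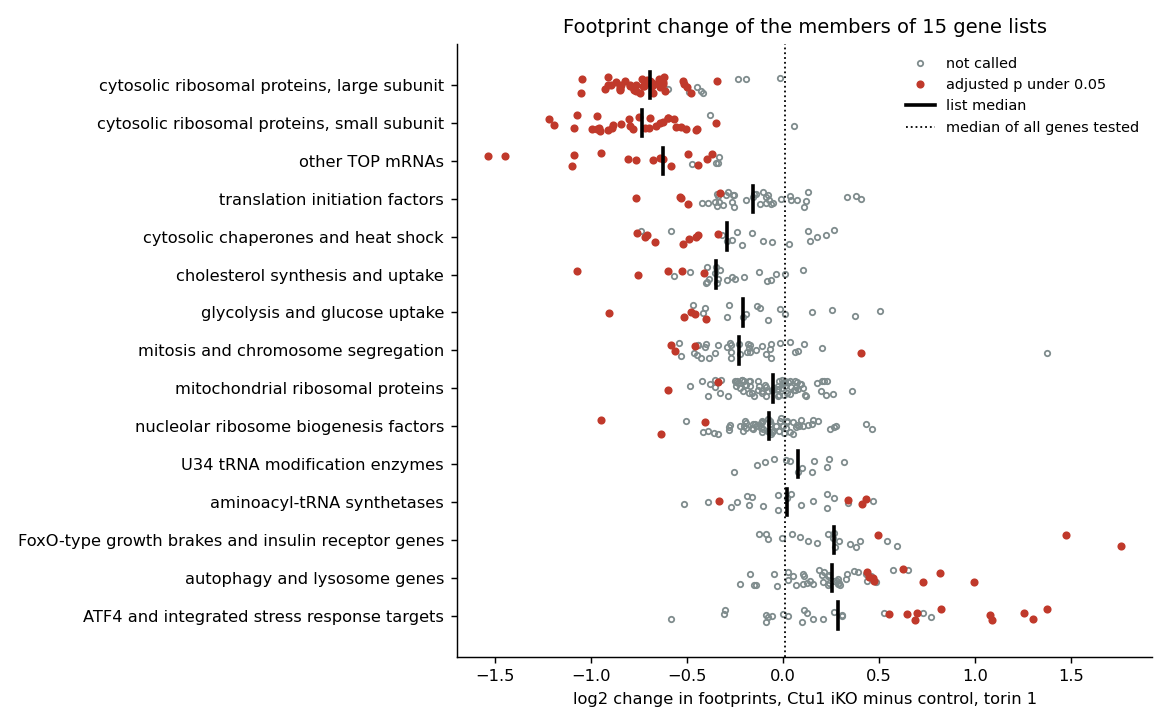
log2 change in footprints, Ctu1 iKO minus control with torin 1, for each tested member of 15 gene lists (points; red, adjusted p under 0.05), with a bar at the list median and a dotted line at the median of all genes, 0.01. The ribosomal protein lists and the other TOP mRNAs have medians of -0.69, -0.73 and -0.62, and the list of ATF4 targets has the highest median, 0.29.

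Some targets of ATF4, the transcription factor of the integrated stress response, were higher in Ctu1 iKO cells. Of 30 genes tested 10 were higher and 0 lower, 8 lay below 0, and the median log2 change was 0.29, where 2.23% of all genes were higher. With the replicate block 13 were higher and 2 lower (background 7.02% and 7.35%), and without control replicate 2, control replicate 4 or Ctu1 iKO replicate 4 the higher genes numbered 6. The 10 were Atf4, Atf5, Ddit3, Trib3, Asns, Psph, Pycr1, Cth, Vldlr and Aldh1l2. Atf4 itself ranged from 57.4 to 84.2 CPM (median 70.2) in control and from 109 to 146 CPM (median 122) in Ctu1 iKO libraries, a log2 change of 0.83 ± 0.12 (edgeR adjusted p = 0.000839), and the ranges stood apart. Atf5, a related factor, had medians of 25.6 and 67.8 CPM (1.25 ± 0.23), and the mitochondrial folate enzyme Aldh1l2 had medians of 23.3 and 56.2 CPM (1.30 ± 0.18). Psph, which makes serine, rose by 0.70 on the log2 scale. The mean level of the 30 genes was higher in Ctu1 iKO cells in 6 of 6 same-numbered pairs, by 0.32 to 0.41. Of 26 genes of the unfolded protein response 1 was higher (median -0.06), the ER co-chaperone Dnajb9, with medians of 8.30 and 14.9 CPM, and the replicate block gave 2 higher and 3 lower genes there.

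Autophagy and lysosome genes also held several higher members, 8 of 48 tested with 0 lower and a median of 0.26 (background 2.23% higher), and 20 were higher with the replicate block (background 7.02%). The count was 3 without Ctu1 iKO replicate 4, 4 without control replicate 3, 5 or 6 or Ctu1 iKO replicate 5, and 5 without control replicate 2 or Ctu1 iKO replicate 6. Gpnmb, a lysosomal and melanosomal glycoprotein, ranged from 90.7 to 163 CPM (median 118) in control and from 196 to 297 CPM (median 245) in Ctu1 iKO cells, a log2 change of 0.99 ± 0.14. The protease Ctsb (0.45 ± 0.10), the autophagosome protein Gabarap (0.44 ± 0.10) and the proton pump subunit Atp6v0d1 (0.82 ± 0.18) rose by less. These 3 calls were lost when single libraries were left out, since the adjusted p reached 0.0598 for Ctsb without control replicate 2 or 3 or Ctu1 iKO replicate 5 or 6, 0.0576 for Gabarap without Ctu1 iKO replicate 5 or 6, and 0.0502 for Atp6v0d1 without Ctu1 iKO replicate 4. Of 21 growth brakes of the FoxO type and insulin receptor genes 3 were higher (median 0.26), and 5 with the block. These were Txnip, which limits glucose uptake, Gadd45a, a stress-induced growth arrest protein, and Btg1. Txnip had 5.11 to 11.7 CPM (median 8.11) in control and 19.4 to 42.0 CPM (median 28.1) in Ctu1 iKO cells, a log2 change of 1.76 ± 0.23. Gadd45a had medians of 4.03 and 10.7 CPM (1.47 ± 0.33), and its ranges overlapped.

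Among called genes that averaged 100 counts or more and did not overlap, which made up 1.3% of genes on the higher and 1.96% on the lower side, the 12 largest rises were led by Dynap, a membrane protein that binds dynactin (chr18:70240429-70244582). Dynap had 3.08 to 7.24 CPM (median 5.10) in control and 20.4 to 33.2 CPM (median 22.9) in Ctu1 iKO libraries, a log2 change of 2.20 ± 0.20 (edgeR adjusted p = 2.45e-05). Txnip, Fam110c (1.59), the BMP antagonist Grem1 (1.51), Ifrd1 (1.42), the guidance cue Sema3c (1.40), the transcription factor Cebpd (1.38), the vitamin B12 carrier Tcn2 (1.35), Aldh1l2, the cAMP phosphodiesterase Pde4b (1.27), Atf5 and the surface protein Msln (1.17) followed on the log2 scale. Ifrd1, a transcriptional coregulator, was the most abundant of the 12, with 50.7 to 78.0 CPM in control and 136 to 223 CPM in Ctu1 iKO cells. Pde4b and Msln were highest in Ctu1 iKO replicate 1, at 63.2 and 69.1 CPM. Their adjusted p rose to as much as 0.066 for Pde4b (without control replicate 1, 3, 5 or 6 or Ctu1 iKO replicate 4) and 0.0786 for Msln (without any 1 control replicate, or Ctu1 iKO replicate 2 or 3). Cebpd, Fbln2, Pde4b and Msln did not pass with replicates 3 to 6 alone. Of the genes followed because of earlier results, Ccng2 (log2 change 0.29, edgeR adjusted p = 0.498) and the interferon-inducible Ifi207 (0.96, edgeR adjusted p = 0.266) did not pass, although Ccng2 passed with replicates 3 to 6 alone (0.592, edgeR adjusted p = 0.028).

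The remaining lists held few calls, where 2.23% of all genes were higher and 2.6% lower. Of 33 actin and contractile genes 3 were higher and 1 was lower (median 0.12), with Actn1, an actin crosslinker (0.53 ± 0.11), and Lpp, a focal adhesion protein (0.54 ± 0.11), among the higher ones and Actg1 the lower one (-0.35 ± 0.07). Of 34 interferon genes 1 was higher (median 0.26), of 22 NRF2 and ferritin genes 2 were lower (median -0.29), of 41 DNA replication genes 2 were lower (median -0.08) and of 30 kinesins 2 were lower (median -0.17). The NRF2 and ferritin count was 1 without any of 10 of the 12 libraries in turn, and the interferon call was lost without any of 9. The DNA replication count fell to 0 without control replicate 2 or 6 or Ctu1 iKO replicate 2, and the kinesin count without control replicate 5 or 6 or Ctu1 iKO replicate 2 or 4. Of 13 polyamine genes 2 were higher and 1 was lower (median -0.01), the lower one being Odc1, the first enzyme of polyamine synthesis (-0.71 ± 0.14). No polyamine gene was higher without control replicate 2, 4 or 6 or Ctu1 iKO replicate 3, 5 or 6. In the lists of p53 targets (15 tested, median -0.14), fatty acid synthesis (16 tested, median -0.13) and MAPK output (26 tested, median 0.04), 0 genes passed in edgeR, 1, 4 and 4 had an unadjusted p under 0.05, and DESeq2 called 0, 2 and 0. With the replicate block, where 14.4% of all genes passed, 0 p53 targets passed, 6 fatty acid genes were lower, and 2 MAPK genes were higher and 3 lower. The block also gave 6 higher interferon genes, 7 lower NRF2 and ferritin genes, 7 higher and 4 lower actin and contractile genes, and 1 higher and 4 lower kinesins. Among the marker lists, 1 of 5 epithelial markers was higher (Sox9, lost without control replicate 5 or 6), and 0 of 17 mesenchymal, 0 of 1 immune and 0 of 1 endothelial markers passed. With the block, 3 epithelial, 5 mesenchymal and 1 immune marker passed, and their part in the other results was not tested.

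Poly(A) RNA of the same lysates was compared to see whether transcripts moved with the footprints. The RNA-seq libraries labelled replicates 5 and 6 stood apart from replicates 1 to 4. Ccng2, a cyclin, had 42.99 to 49.97 CPM of transcripts in control replicates 1 to 4 and 7.41 to 7.58 CPM in control replicates 5 and 6. Dynap transcripts were at 17.9 to 29.3 CPM in Ctu1 iKO replicates 1 to 4 and at 2.19 to 4.28 CPM in Ctu1 iKO replicates 5 and 6, below the controls of those numbers. Replicates 1 to 4 were therefore used. Whether replicates 5 and 6 carry the right label was not tested, and the counts with them depend on those labels. In replicates 1 to 4, 840 of 9662 genes passed (8.69%), 476 higher and 364 lower. With all 6 replicates 0 genes passed in edgeR and 249 had an unadjusted p under 0.05. With library totals alone the split was 403 higher and 532 lower, with the replicate number as a block 3232 genes passed, and the count fell to 189 without control replicate 2, 209 without control replicate 3, 388 without Ctu1 iKO replicate 4, 445 without control replicate 4 and 459 without Ctu1 iKO replicate 2.

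Transcripts of the ribosomal proteins did not pass the test. Of 83 genes 0 passed in either direction in edgeR (background 4.93% higher and 3.77% lower), 6 had an unadjusted p under 0.05 and 2 passed in DESeq2, all higher. The median log2 change was 0.09, with a range from -0.09 to 0.45. With the replicate block 15 of the 83 were higher and 0 lower, where 15.9% of all genes were higher and 17.5% lower. Eef1a1 transcripts were at 10440 to 11600 CPM in control and 10230 to 12920 CPM in Ctu1 iKO replicates 1 to 4, and these ranges overlapped. Of the 19 other TOP mRNAs 1 was higher (Vim). Transcripts of 14 of 30 ATF4 targets were higher and 0 lower (median 0.36), and those of 14 of 48 autophagy and lysosome genes were higher and 1 lower (median 0.29). The block gave 19 higher and 3 lower ATF4 targets and 32 higher and 2 lower lysosome genes. With all 6 replicates 0 of either list passed, with medians of 0.07 and 0.16. Dynap (1.89 ± 0.17), Txnip (1.76 ± 0.21), Fam110c (1.30 ± 0.11), Grem1 (1.495 ± 0.22) and Sema3c (1.36 ± 0.13) had transcript changes of 1.30 to 1.89 against footprint changes of 1.40 to 2.20. Of the 12 largest rises in footprints, 10 had higher transcripts, and those of Cebpd and Pde4b were without a call. Ifrd1 had 0.79 in transcripts against 1.42 in footprints, Cebpd 0.91 against 1.38 and Pde4b 0.66 against 1.27. These footprint changes are of replicates 1 to 6 and the transcript changes of replicates 1 to 4. None of the 12 genes passed the test of footprints relative to transcripts over replicates 1 to 4. With all 6 replicates the transcript changes of Dynap, Txnip, Fam110c, Grem1 and Sema3c were 1.23, 1.12, 1.01, 0.80 and 0.70, and none passed (edgeR adjusted p = 0.95). Of the 221 genes with higher footprints, 120 (54.3%) were among the 476 with higher transcripts (25.2% of these). Of the 258 with lower footprints, 41 (15.9%) were among the 364 with lower transcripts (11.3%). Of 41 mitosis genes 14 had lower transcripts (median -0.27), 30 with the block and 0 with all 6 replicates.

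**Figure D5:**
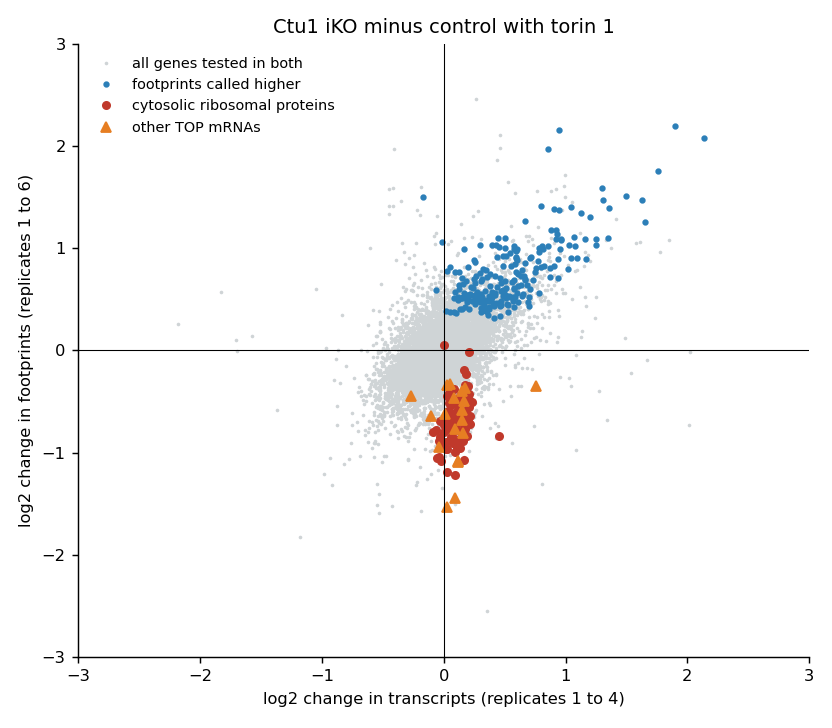
log2 change in transcripts (x axis, replicates 1 to 4) against that in footprints (y axis, replicates 1 to 6), Ctu1 iKO minus control with torin 1, 1 point per gene, with 1 gene outside the axes. Ribosomal protein genes (red, median 0.09 in transcripts and -0.71 in footprints) and other TOP mRNAs (orange) lie below the cloud near a transcript change of 0, and genes with higher footprints (blue) spread to higher transcripts.

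Footprints relative to transcripts, the translational efficiency, were tested in 1 edgeR model over replicates 1 to 4 of both assays, through the term in which the genotype effect depends on the assay. This measure shares its footprint libraries with the comparison above. The model had no term for the culture that gave both assays. Of 9658 genes 72 passed (0.745%), 4 higher (0.0414%) and 68 lower (0.704%). The 68 held 47 ribosomal protein genes, 8 other TOP mRNAs, 2 pseudogenes and 11 others. The ribosomal protein list had a median of -0.83, against 0.01 over all genes, and lay below 0 in 83 of 83 genes. With a term for each culture 90 of the 9658 genes passed, 4 higher and 86 lower, and 52 of the 86 encode ribosomal proteins. With all 6 replicates 113 genes passed, of which 64 encode ribosomal proteins (background 1.11% lower). Single libraries weighed on the count, which was 20 without replicate 2 of control, 38 and 40 without Ctu1 iKO replicate 3 and 4, and 42, 46 and 47 without control replicate 4, 1 and 3.

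Eef1a1 (-1.55 ± 0.12, edgeR adjusted p = 4.46e-06), Pabpc1 (-1.54 ± 0.26) and Rps12 (-1.46 ± 0.18) were among the 5 largest falls in translational efficiency of the 68 genes called lower. Acta2, smooth muscle actin, stood first with -2.10 ± 0.34. Its footprint levels overlapped (127 to 202 CPM in control, 130 to 190 CPM in Ctu1 iKO cells), whereas its transcripts were at 4.81 to 9.69 CPM in control and 16.6 to 38.9 CPM in Ctu1 iKO replicates 1 to 4. Acta2 has close paralogues among the actins, and how reads shared with them were counted was not tested. With all 6 replicates its call was lost. Vim likewise had higher transcripts (0.75 ± 0.10, and 0.54 ± 0.20 without a call with all 6 replicates) with a translational efficiency change of -1.06 ± 0.17. Rpl36a-ps1, a near copy of Rpl36a, had -1.93 ± 0.39, but its transcripts were at only 0.0135 to 0.0551 CPM in control and 0.0444 to 0.131 CPM in Ctu1 iKO replicates 1 to 4, and its footprints fell by 0.68 on the log2 scale. The calls of Vim, Pabpc1, Hspa8 and Actg1 were lost without control replicate 2, with adjusted p-values of 0.0638 to 0.0658, and those of Vim and Actg1 also with all 6 replicates (adjusted p = 0.0596 and 0.0777).

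The 4 genes with higher translational efficiency were the zinc finger genes Zkscan5 (1.96 ± 0.39) and Zbtb24 (1.09 ± 0.23), the centriole gene Tedc1 (1.23 ± 0.26) and Ibtk (0.79 ± 0.17), an inhibitor of Bruton tyrosine kinase. Their footprint levels were low apart from Ibtk, which had 22.5 to 31.7 CPM in control and 40.6 to 56.4 CPM in Ctu1 iKO libraries, with transcripts at 46.2 to 55.1 and 46.5 to 56.7 CPM in replicates 1 to 4. Each of these calls was lost when 1 of several libraries was left out. The adjusted p reached 0.139 for Ibtk (without any 1 of the 8 replicates), 0.153 for Zkscan5 (without control replicate 1, 2 or 4 or Ctu1 iKO replicate 2 or 4), 0.202 for Zbtb24 (without any replicate but control replicate 3) and 0.181 for Tedc1 (without any replicate but Ctu1 iKO replicate 1). The call of Zbtb24 was also lost with the replicate block (adjusted p = 0.108) and with all 6 replicates (0.211), and that of Tedc1 with all 6 (0.198).

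Whether the effect of Ctu1 loss itself differed between torin 1 and DMSO was tested as the interaction of genotype and treatment over all 23 footprint libraries. Of 9857 genes 63 passed (0.639%), all of them lower, and of these 63 genes 39 encode ribosomal proteins, 6 are other TOP mRNAs and 10 are pseudogenes or gene models. DESeq2 called 3 higher and 106 lower. For the ribosomal protein list the median difference was -0.63, below 0 in 83 of 83 genes, whereas with DMSO alone 0 of the 83 passed in edgeR, 9 had an unadjusted p under 0.05 and the median log2 change was -0.08. Over all genes with DMSO, 277 of 10397 passed (2.66%), 169 higher and 108 lower. With the replicate number as a block, 139 genes passed, 6 higher and 133 lower, of which 75 were ribosomal protein genes (background 1.35% lower). Of the 19 other TOP mRNAs 5 were lower with DMSO alone (background 1.04%), with a median of -0.19.

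Scaled over all 23 libraries, Eef1a1 footprints had medians of 13390 CPM in control and 10390 CPM in Ctu1 iKO cells with DMSO and of 5467 and 1890 CPM with torin 1. The log2 change was -0.31 ± 0.06 with DMSO and -1.53 ± 0.08 with torin 1, and the difference was -1.22 ± 0.09 (edgeR adjusted p = 1.07e-08). Rps12 had medians of 729 and 709 CPM with DMSO, and its difference between treatments was -1.17 ± 0.19. Rps2, Rps27 and Rps18 differed by -1.01, -1.01 and -1.0. Khdrbs2 had the largest difference of the 63 called genes, -1.36 ± 0.28, with nearly no transcript reads as given above and with medians of 12.4 and 12.2 CPM with DMSO and 9.46 and 4.06 CPM with torin 1. Pabpc1 and Ybx1 fell with DMSO too (log2 changes -0.72 ± 0.10 and -0.46 ± 0.10), and the test of the difference gave -0.72 ± 0.20 (edgeR adjusted p = 0.126) and -0.21 ± 0.16 (edgeR adjusted p = 0.9998).

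For the ATF4 targets, 0 of 30 passed this test in edgeR or DESeq2 and 1 had an unadjusted p under 0.05. With DMSO alone 13 of 33 were higher (background 1.63%) with a median of 0.54, against 10 of 30 and 0.29 with torin 1. Atf4 footprints had medians of 97.8 and 179 CPM with DMSO and 67.9 and 119 CPM with torin 1. Autophagy and lysosome genes had medians of 0.24 with DMSO (11 of 49 higher) and 0.26 with torin 1, and 0 of 48 passed the test of the difference in edgeR or DESeq2, with 1 at an unadjusted p under 0.05. Of the 221 genes higher with torin 1, 83 (37.6%) were among the 169 higher with DMSO (49.1% of these). Of the 258 lower with torin 1, 40 (15.5%) were among the 108 lower with DMSO (37.0%). Ibtk rose with DMSO by 1.42 ± 0.12 and with torin 1 by 0.78 ± 0.12, with a difference of -0.64 ± 0.16 that did not pass (edgeR adjusted p = 0.0803).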

How the data were processed

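The authors deposited whole-number counts per gene, without normalization, for footprint and poly(A) RNA libraries. Per the labels' processing notes, footprint reads were trimmed with cutadapt 3.4, identifiers were extracted with UMI-tools 1.1.1 and reads were aligned with STAR 2.5.3a to GRCm38 (mm10). The study's methods name a human genome instead, but the gene symbols are those of mouse. Whether duplicate molecules were collapsed was not given in the sources used here. The RNA kit marks strand, how its reads were counted was not given, and all RNA-seq counts were even numbers. A filter of 100 counts in at least 1 footprint library preceded the listing, and 11 symbols on 23 entries were left out.

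Groups came from the labels. Tests used edgeR 4.0.16 under R 4.3.3 on genes whose mean count reached 10 (TMM factors, quasi-likelihood test, Benjamini-Hochberg adjustment over all genes tested, adjusted p under 0.05), without the replicate number in the model, since the study's methods name no such term. CPM are counts per 1000000, scaled by TMM. Same-numbered libraries deviated together (r = 0.316 to 0.543 in footprints and 0.477 to 0.758 in RNA-seq replicates 1 to 4), so that the numbers were taken to pair the samples. Of 6 Ctu1 iKO footprint libraries, 5 correlated best with the control of their own number. Ctu1 iKO replicate 5 had r = 0.447 with control replicate 6 and 0.423 with control replicate 5. Whether the 6 pairs are independent of each other could not be settled. Footprint libraries of a group differed by more than sampling noise in all 30 pairs (chi-square at least 21.6 per degree of freedom). Footprint totals were lower in Ctu1 iKO cells in 6 of 6 same-numbered pairs (mean log2 ratio -0.70, two-sided exact permutation of signs within pairs, p = 0.0312, the smallest possible), whereas the unpaired two-sided exact permutation test gave p = 0.147.

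Members and lists were chosen with earlier results of these data known, and lists are described by counts and medians with no test. Named genes were the U34 enzymes, Rpl29, Rps25, Rps3, Dynap, Ccng2, Ibtk, Acta2, Pabpc1, Ybx1 and Ifi207, known from such results, the 12 largest rises and falls among called genes that averaged 100 counts or more and did not overlap, up to 4 members per list by p, and the 5 largest changes per direction in translational efficiency and in the difference from DMSO. Further called members are named where a count is small. Alternatives were DESeq2 1.42.0, library totals, RLE factors, other filters, a replicate block, a term for replicates 1 and 2 against the rest, subsets of replicates and leaving out each library. The subsets of RNA-seq replicates 1 and 2 and of 5 and 6, list counts under several settings and tools, and the test of totals by pair were chosen after seeing the data. On simulated counts, 100 genes were changed by a log2 of 1 and 100 by a log2 of 2, all averaging at least 100 counts. Of those changed by 1, the footprint comparison recovered 100% and translational efficiency 87%, and 4.8% and 7% of all their calls were false. The simulation gave all genes the same dispersion and did not pair libraries, so it does not measure power in the real libraries. Coding sequences and transcript starts were read from GENCODE M21 in GRCm38, 9648 by symbol and 136 by synonym. Tables were handled with pandas 2.3.3 in Python 3.11.15. Some single-gene values are not reported here.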

Additional observations from a re-analysis of the deposited data

Results flagged for a closer look

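Of 150 groups of 6 libraries looked at in 75 named genes, 9 had a library that stood apart by Dixon's test at the 95% level, which chance gives in about 1 of 20 groups. Of these 9, 5 were Ctu1 iKO replicate 1, the shallowest footprint library, which held the highest value of its group for Dynap (33.2 CPM), Pde4b (63.2 CPM), Msln (69.1 CPM), Zkscan5 (15.9 CPM) and Rpl36a-ps1 (40.6 CPM). Control replicate 1 was lowest for Pabpc1 (88.4 CPM) and highest for Ccng2 (26.95 CPM), control replicate 4 was highest for Slc16a3 (465 CPM), and Ctu1 iKO replicate 2 was lowest for Eef1b2 (348 CPM). Without Ctu1 iKO replicate 1, 572 genes passed in place of 479.

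The effect of Ctu1 loss differed between torin 1 and DMSO by the test of the interaction in 63 genes, all with a lower value under torin 1. Among the named genes, the log2 effect with torin 1 minus that with DMSO was -1.22 for Eef1a1, -0.89 for Eef2 and -0.85 for Eef1b2 among the elongation factors. In the small subunit it was -1.17 for Rps12, -1.01 for Rps2, -1.01 for Rps27, -1.0 for Rps18, -0.88 for Rps7, -0.78 for Rps19, -0.56 for Rps25 and -0.51 for Rps3. In the large subunit it was -0.77 for Rpl10a, -0.71 for Rpl28, -0.69 for Rpl3 and -0.66 for Rpl17. The initiation factor subunits Eif3f and Eif3h had -0.57 and -0.50, the chaperone Hspa8 -0.51, the actin Actg1 -0.44 and Khdrbs2 -1.36. The near copies of ribosomal protein genes had -0.99 (Rps18-ps5), -0.98 (Rps18-ps6) and -0.66 (Rpl36a-ps1), and their reads may be shared with their parent genes.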

How the results depend on the processing

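Of 66 called named genes, 0 changed sign under any of 23 alternatives. Most were named for a small p or for groups without overlap in these same libraries, which makes a change of sign unlikely. Of the 66, 56 lost the call only with replicates 1 and 2 alone, where 0 genes passed in the footprint comparison, and 10 lost it elsewhere too. The footprint count of 479 was 842 with DESeq2, 1425 with the replicate block, 914 with a term for replicates 1 and 2 against 3 to 6, 842 with all 23 libraries in 1 fit, and 301 to 572 without single libraries. The transcript count of 840 was 1633 with DESeq2, 3232 with the replicate block, 0 with all 6 replicates, 12 with replicates 1 and 2 alone, 246 with replicates 5 and 6 alone, and 189 to 717 without single libraries. The translational efficiency count of 72 was 176 with DESeq2, 90 with a term for each culture, 113 with all 6 replicates and 20 to 64 without single libraries. The count of 63 for the difference from DMSO was 109 with DESeq2, 139 with the replicate block, 121 with the term for replicate sets and 48 to 64 without single libraries. Footprint counts of several shorter lists moved by over 1.5 times with the replicate block or without single libraries, and the counts of ribosomal protein genes (66 to 73 without single libraries) and other TOP mRNAs (13 to 17) did not. Of 9 genes without a call, 2 (Vim and Ccng2) passed in an alternative and 4 changed sign. Acta2 moved from -0.02 to 0.026 with library totals, to between -0.083 and 0.061 without single libraries and to 0.076 with replicates 3 to 6 alone. Ccng2 was at -0.433, Ctu2 at -0.12 and Rps27l at -0.194 with replicates 1 and 2 alone, and without single libraries Ctu2 ranged from -0.025 to 0.13 and Rps27l from -0.016 to 0.127. The causes were not tested. The shallowest library had a median of 126 counts per gene.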
